A study of Mus musculus with 18 samples.

Results

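The Notch genes described here are 10 of the 55486 genes in the count table, taken by gene symbol: the 4 receptors Notch1, Notch2, Notch3 and Notch4, the 3 ligands Jag1, Jag2 and Dll1, and the 3 target genes Hes1, Hey1 and Heyl. They were followed in primary normal fibroblasts (NFs) of the mammary gland of female FVB/n mice, an inbred strain. Glands of several mice were pooled for a sort, cells with EpCAM, CD49f, CD45 or CD31 on their surface were gated out, and the rest were split by CD26, a surface peptidase encoded by Dpp4. The sorted cells were grown on collagen at low passage. For 7 days they then received control conditioned medium or the conditioned medium (CM) of 1 of 6 cell lines (13-MCB-17, 10-SJK-221, 18-MCB-12, 13-MCB-44, 13-MCB-90 and 13-MCB-138). The lines came from tumours of genetically engineered mice that model invasive lobular breast carcinoma. The 4 groups are CD26- NFs in control medium (n = 3, replicates 1 to 3), the same cells in tumour CM (n = 6, replicates 4 to 9), CD26+ NFs in control medium (n = 3, replicates 10 to 12) and those in tumour CM (n = 6, replicates 13 to 18). From every line, CM went to 1 CD26- and 1 CD26+ culture.

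Notch signalling runs between touching cells. A Jagged or Delta ligand on one cell binds a Notch receptor on its neighbour, Adam10 and then the gamma-secretase complex cut the receptor, and the freed intracellular part enters the nucleus, where it joins the DNA-binding protein Rbpj and a Mastermind coactivator to switch on genes of the Hes and Hey families. Hes and Hey proteins are repressors of transcription, so the pathway output is itself a brake on other genes. Fringe enzymes, encoded by Lfng, Mfng and Rfng, add sugars to the receptors and change which ligands they answer. Notch3 is best known from the mural cells of vessels and Notch4 from endothelium, and in the mammary gland Jag1 and Dll1 are also made by epithelial cells. RNA levels say nothing of receptor cleavage, and none of the values below measures Notch activity.

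The 3 target genes encode proteins of related build, and the ends of their reading frames are shown because they differ. Many Hes proteins carry near their end a tetrapeptide that holds Groucho-type corepressors, which are encoded by Tle genes, and Hey proteins can carry a related one that is not known to do so. It was searched as a codon for tryptophan (TGG) or tyrosine (TAT or TAC), any codon for arginine, any codon for proline and TGG. Hes1 (ENSMUSG00000022528) holds the form that starts with tryptophan, 2 codons before its stop codon, on the plus strand at chr16:30067399-30067428. In Hey1 (ENSMUSG00000040289) the form that starts with tyrosine lies 7 codons before the stop, on the minus strand at chr3:8664496-8664531. No such codon run was found in the whole 326-codon frame of Heyl (ENSMUSG00000032744), whose last 30 bases lie on the plus strand at chr4:123246601-123246630. The sequences come from the GRCm38 genome with the GENCODE M21 annotation, read 5′ to 3′ on the coding strand up to and including the stop codon, with the tetrapeptide codons in capitals.
Hes1: gactccatgTGGAGACCGTGGcggaactga
Hey1: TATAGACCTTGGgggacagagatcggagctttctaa
Heyl: tcagaaatcactgaaattggggctttctga

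RefSeq (GRCm38.p6) promoters matched 7 of the 10 genes, namely the receptors and ligands. In the 250 bases before each start, the Rbpj core TGGGAA was found on neither strand in any of these 7 genes, whereas 21.6% of 32841 promoters of this length hold it. The N-box CACNAG, a form that Hes proteins bind, was found in the windows of Notch1, Notch2 and Notch3 on either strand, and 36.7% of all promoters hold it. The Notch1 window lies within its annotated gene, so its N-box is not upstream of the whole gene. A further window of Dll1 lies within its gene as well. Both letter searches describe these windows only. The upstream sequences of Jag1, Dll1 and Notch3 are shown, for a pair of the ligands that were lower and the receptor that was higher in CD26+ NFs in tumour CM (below). Jag2 was lower too, but its window lies within its annotated gene and is not shown. The 3 shown lie on the minus strand, before the first annotated exon base of their own gene: Jag1 at chr2:137116645-137116770, Dll1 at chr17:15376933-15377182 and Notch3 at chr17:32166891-32167140. Overlap with exons of other genes was not checked. Capitals mark the 2 N-boxes of Notch3, which start 204 and 159 bases before its RefSeq start, the second of them on the opposite strand.
Jag1: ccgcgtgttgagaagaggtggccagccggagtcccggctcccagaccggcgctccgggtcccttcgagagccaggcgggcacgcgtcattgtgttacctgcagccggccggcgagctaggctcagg
Dll1: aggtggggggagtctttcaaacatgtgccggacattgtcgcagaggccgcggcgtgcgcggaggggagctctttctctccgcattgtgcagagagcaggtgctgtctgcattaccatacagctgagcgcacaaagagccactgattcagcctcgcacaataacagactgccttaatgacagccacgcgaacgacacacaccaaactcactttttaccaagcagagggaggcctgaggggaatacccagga
Notch3: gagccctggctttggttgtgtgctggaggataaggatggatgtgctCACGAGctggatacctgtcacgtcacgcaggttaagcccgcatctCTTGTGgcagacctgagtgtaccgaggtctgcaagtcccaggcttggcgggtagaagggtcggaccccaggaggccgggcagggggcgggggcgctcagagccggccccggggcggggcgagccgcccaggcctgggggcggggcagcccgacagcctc

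Total counts ran from 9725723 to 14585349 per library. Levels are given in CPM (counts scaled to the TMM-adjusted library size). Differences are log2 fold changes with their standard error (SE) from one edgeR model over the 4 groups, in which 14273 genes were tested. FDR stands for the edgeR p-value after Benjamini-Hochberg adjustment over these genes, and genes under 0.05 were called. The labels do not say whether libraries of a group came from separate mice, so the p-values measure the spread between these libraries, which may be technical in part. All 10 Notch genes were tested. None of them also passed the study's limit of a log2 fold change over 2 or under -2 in any comparison, in edgeR or in DESeq2, and 0 did so at an unadjusted p under 0.05. That limit left 0.904% of all genes for the CM effect in CD26- NFs, 2.01% for the CM effect in CD26+ NFs, 5.97% between the cell types in control medium, 4.16% between them in CM and 0.392% when the CM effects were set against each other.

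The labelled cell type was checked with marker genes. The summed level of 10 fibroblast markers was 26729 to 29831 CPM in CD26- control and 16744 to 32811 CPM in CD26- CM libraries. In CD26+ NFs it was 80124.5 to 100687 CPM in control and 40103 to 67804 CPM in CM libraries, without overlap. Of the 10, 3 were called higher and 6 lower with CM in CD26+ NFs. Dpp4 itself was at 2 counts or fewer in every control library of either cell type, so it does not check the sort there. In CM it had 0.0776 to 0.881 CPM in CD26- and 0.715 to 7.80 CPM in CD26+ libraries, higher in the latter (3.23 ± 0.53, edgeR FDR 5.02e-05), and it was also called higher with CM in CD26+ NFs. Of 11 epithelial markers, none was at 0, and 9 were lower in CD26+ than in CD26- NFs in each medium. Their summed level was 4529 to 5036 CPM in CD26- control, 2792 to 4612 CPM in CD26- CM, 745 to 1339 CPM in CD26+ control and 666 to 1604 CPM in CD26+ CM libraries, although the sort had gated out EpCAM+ cells. Endothelial markers summed to 2.73 to 10.9 CPM over all libraries, with Cldn5 at 0 in 3 of the 4 groups, and immune markers to 24.4 to 55.0 CPM. Mural markers summed to 695 to 1087 CPM. Skeletal muscle markers summed to 50.2 to 78.5 CPM in CD26- control, 57.3 to 156 CPM in CD26- CM, 12.4 to 18.9 CPM in CD26+ control and 6.68 to 20.1 CPM in CD26+ CM libraries. Of the 9 tested, 7 were higher with CM in CD26- NFs, among them Myod1 and Myog, and all 9 were lower in CD26+ than in CD26- NFs in CM. Replicate 18 had the lowest median correlation with its own group, r = 0.979 against 0.983 to 0.993 in the 17 others.

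Levels of different genes were compared per kb of exon. Jag1 was the leading ligand in every group, with 72.4 ± 5.33 CPM per kb (SD, n = 3) in CD26- control, 32.9 ± 8.58 (n = 6) in CD26- CM, 25.6 ± 2.93 (n = 3) in CD26+ control and 17.4 ± 6.15 (n = 6) in CD26+ CM libraries. It made up 88.4% to 96.2% of the summed level of the 3 ligands in every library. Dll1 and Jag2 stayed at or below 2.46 CPM per kb in every group mean. Among the receptors, Notch2 took 60.5% to 72.8% of the summed level per kb in every library, ahead of Notch1 with 15.6% to 27.5%. Notch3 held 6.51% ± 0.391 (SD, n = 3) of the receptor level in CD26- control and 12.4% ± 0.331 (n = 3) in CD26+ control libraries. In tumour CM its share was 5.70% ± 1.01 (n = 6) in CD26- and 12.8% ± 3.28 (n = 6) in CD26+ NFs. Notch4, at 0.532 to 0.680 CPM per kb in the group means, was the lowest receptor in every group. Of the targets, Hes1 was highest per kb in every group, followed by Heyl and Hey1.

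**Figure D1:**
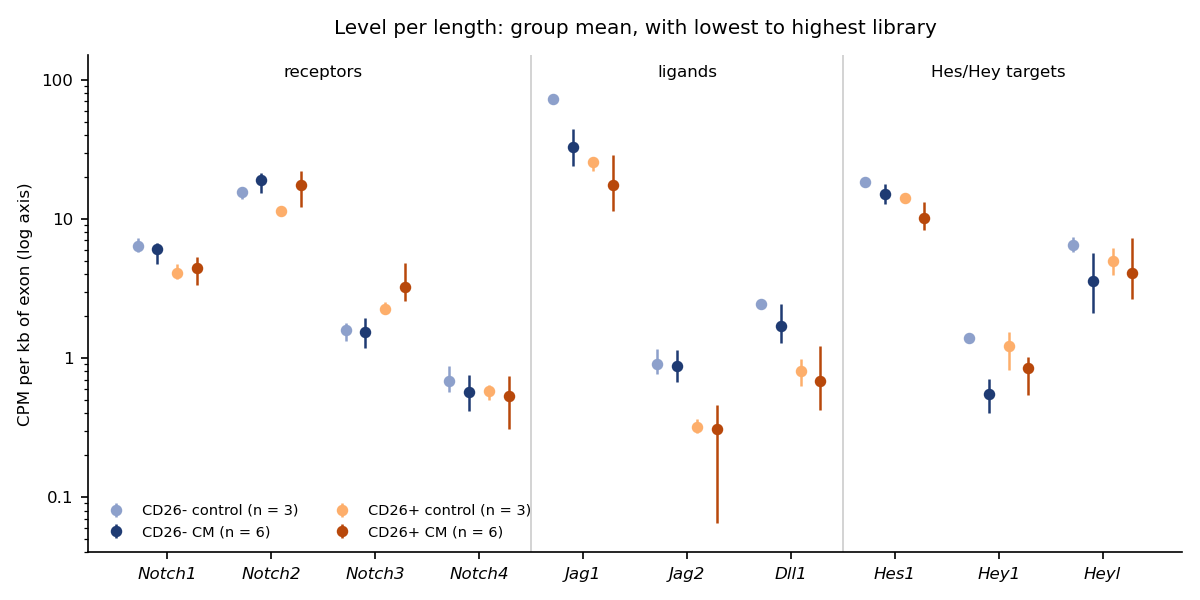
Level of the 10 Notch genes in CPM per kb of exon, on a log axis, with a point for each group mean and a line from the lowest to the highest library of the group (n = 3 for control, n = 6 for CM). Jag1, Notch2 and Hes1 were the highest ligand, receptor and target in all 4 groups, and Jag1 had 72.4 CPM per kb in CD26- control against 17.4 in CD26+ CM libraries.

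Tumour CM lowered the dominant ligand and a target in CD26- NFs. Jag1 and Hey1 fell, by 1.14 and 1.36 on the log2 scale, and 2 of the 10 genes were called in all, both lower. In CD26+ NFs Notch2 and Notch3 rose and Hes1 fell, so 3 of 10 were called. Of all tested genes, 7.88% were higher and 7.28% lower in CM in CD26- NFs, and 15.2% were higher and 13.4% lower in CD26+ NFs. Shares of 2 in 10 and 3 in 10 thus lay near those of all genes, 15.2% and 28.6% in either direction. The median log2 fold change of the 10 genes was -0.27 in CD26- and -0.16 in CD26+ NFs, beside 0.01 and -0.004 for all tested genes. In RNA from a whole culture, fewer cells that express a gene and less RNA per cell cannot be told apart.

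Among the receptors, Notch1 (ENSMUSG00000026923, chromosome 2, 26457903 to 26516663) had 82.3, 104 and 87.0 CPM in the CD26- control libraries and 67.3 to 96.1 CPM with a median of 92.3 in CD26- CM. In CD26+ NFs it had 54.3, 52.4 and 67.5 CPM in control medium and 47.8 to 75.3 CPM with a median of 64.5 in CM. Its groups overlapped between media in both cell types, with log2 fold changes of -0.09 ± 0.15 (edgeR FDR 0.742) in CD26- and 0.13 ± 0.15 (edgeR FDR 0.555) in CD26+ NFs. Between the cell types it was lower in CD26+ NFs, by a log2 fold change of -0.65 ± 0.17 (edgeR FDR 0.00412) in control medium, where no library overlapped, and of -0.43 ± 0.12 (edgeR FDR 0.00496) in CM, where some did.

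Notch2 (ENSMUSG00000027878, chromosome 3, 98013527 to 98150361) had 115, 121 and 130.2 CPM in CD26+ control libraries and 131 to 236 CPM with a median of 193 in CD26+ CM. The lowest CM value, that of replicate 18 (130.7 CPM), lay just above the highest control value, so the groups narrowly did not overlap. The rise was 0.63 ± 0.15 on the log2 scale (edgeR FDR 0.00393), a 1.55-fold higher level. In CD26- NFs it had 149.9, 183 and 169.6 CPM in control medium and 165 to 231 CPM with a median of 206 in CM, which overlapped (0.28 ± 0.14, edgeR FDR 0.195). In control medium Notch2 was lower in CD26+ NFs (-0.46 ± 0.17, edgeR FDR 0.0295), a call that was lost without replicate 2 (FDR 0.107), replicate 3 (0.0693), replicate 10 (0.0895) or replicate 11 (0.0777). In CM the cell types did not pass the threshold (-0.11 ± 0.12, edgeR FDR 0.452).

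Notch3 (ENSMUSG00000038146, chromosome 17, 32120820 to 32166852) was the receptor that was higher in CD26+ NFs in CM, where Notch1 was lower. It had 9.55 to 15.7 CPM with a median of 12.2 in CD26- CM and 20.8 to 38.9 CPM with a median of 24.6 in CD26+ CM libraries, without overlap. The log2 fold change was 1.08 ± 0.15 (edgeR FDR 6.05e-06), or 2.12-fold higher in CD26+ NFs. The control libraries held 10.7, 14.3 and 13.3 CPM in CD26- and 16.9, 17.3 and 20.6 CPM in CD26+ NFs. These did not overlap either, but the difference of 0.51 ± 0.21 stood at an edgeR FDR of 0.0514 and passed with DESeq2 (0.0438), with upper-quartile scaling (0.0445), with only these 2 groups fitted (0.00353) and without any 1 of replicates 5, 9, 13 and 17 (0.0108 to 0.0452).

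The CM effect on Notch3 in CD26+ NFs was a rise of 0.52 ± 0.18 in log2 units (edgeR FDR 0.0344), and all 6 CM libraries lay above the 3 control libraries. Replicate 13, given CM of 13-MCB-17, held the highest value, 38.9 CPM beside 20.8 to 25.9 CPM in the 5 others. The call was lost without replicate 13 (log2 fold change 0.37, FDR 0.0585), replicate 10 (FDR 0.126), replicate 11 (0.128) or replicate 14 (0.0521), and with only these groups fitted (0.0645). In CD26- NFs its log2 fold change with CM was -0.05 ± 0.19 (edgeR FDR 0.894). Mural markers, with which Notch3 is commonly linked, summed to 893 to 1003 CPM in CD26+ control and 1008 to 1087 CPM in CD26+ CM libraries, with Ndufa4l2 higher (1.55, edgeR FDR 0.0027) and Abcc9 lower (-1.65, edgeR FDR 0.000366) of 8 tested. Most of that sum is Pdgfrb, which fibroblasts also express, at 742 ± 64.7 CPM (SD, n = 3) in control and 831 ± 26.7 CPM (n = 6) in CM libraries. Rgs5, a more specific pericyte gene, was at 1.14 to 2.32 CPM in these libraries and Higd1b at 0. The part of mural cells in the Notch3 result was not tested.

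Notch4 (ENSMUSG00000015468, chromosome 17, 34564268 to 34588503) was counted 28 to 79 times per library. Its log2 fold changes ran from -0.26 to -0.08 over the 4 group comparisons, with edgeR FDRs of 0.484 to 0.775. The groups overlapped in all 4.

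**Figure D2:**
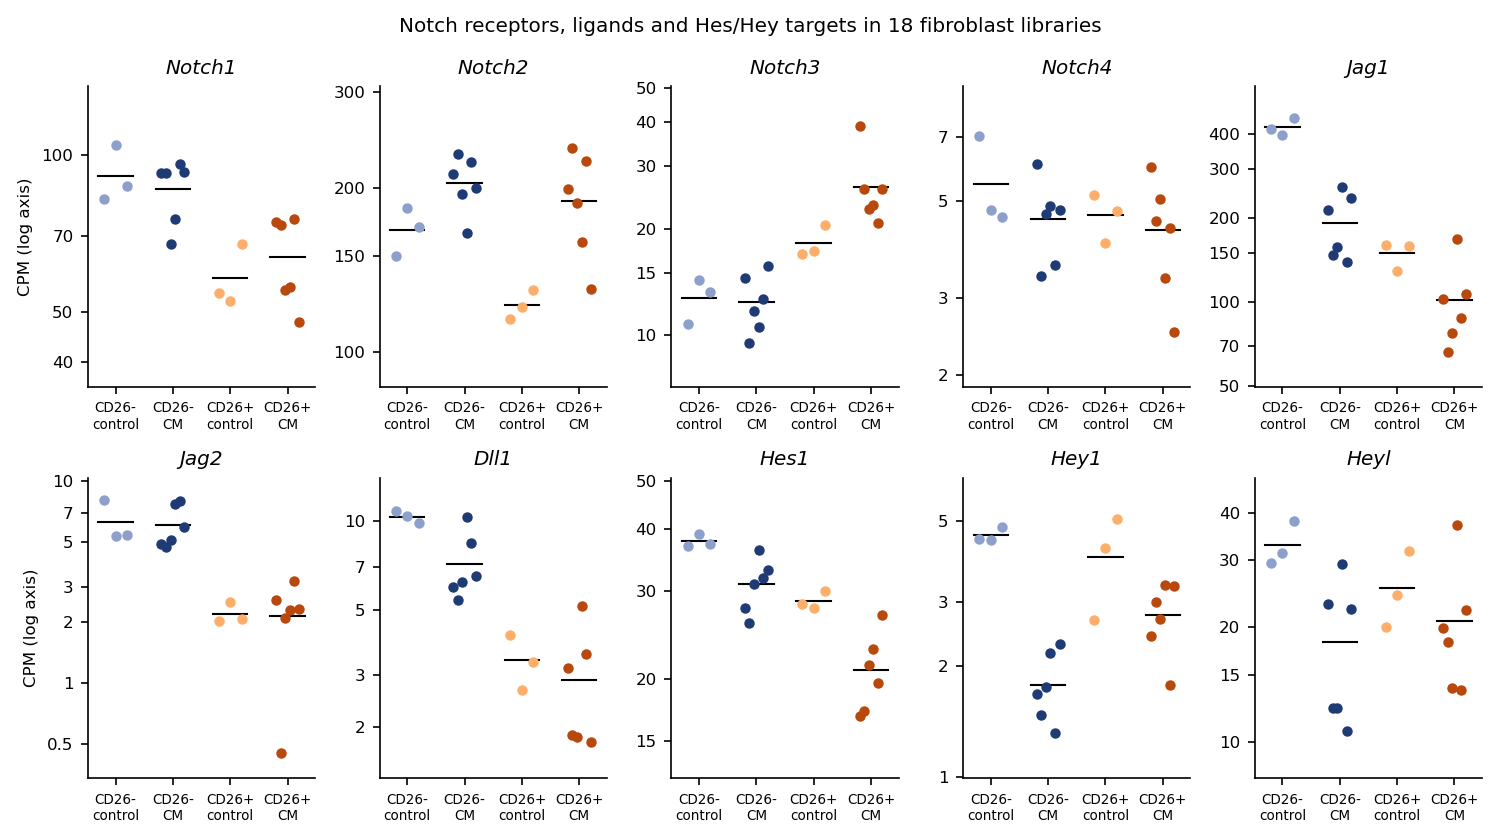
CPM of each Notch gene in all 18 libraries, on a log axis, 1 point a library, with a bar at the group mean (n = 3 for control, n = 6 for CM). Jag1 separated CD26- control libraries (395 to 456 CPM) from all 15 others (at most 258 CPM), and Notch3 separated CD26+ from CD26- NFs.

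The ligands were lower in CD26+ NFs, all 3 of them in both media. Of all tested genes, 25.4% were lower in control medium and 29.3% in CM. Jag1 (ENSMUSG00000027276, chromosome 2, 137081456 to 137116644) had 416, 395 and 456 CPM in CD26- control libraries against 159.9, 129.7 and 159 CPM in CD26+ control libraries. The log2 fold change of -1.50 ± 0.27 (edgeR FDR 0.000194) corresponds to a 2.83-fold lower level. With CM it fell in CD26- NFs to 139.6 to 258 CPM with a median of 185, and no CM library reached the control range (-1.14 ± 0.22, edgeR FDR 0.00314). In the same comparison 1 of 11 epithelial markers was called lower, and the levels of 4 of the 11 did not overlap between the media. Their summed level was 4529 to 5036 CPM in control libraries, 4612 CPM in replicate 7 and 2792 to 3776 CPM in the other CM libraries. Of 9 skeletal muscle markers, 7 were higher. Of 8 mural markers, Rgs5 (-2.19) and Mcam (-1.49) were lower and Ndufa4l2 (2.27) was higher. The part of any of these in the falls of Jag1 and Hey1 was not tested. In CD26+ CM libraries it had 66.5 to 168 CPM with a median of 95.3. There 5 of 6 libraries lay below the control range and replicate 16 lay above it, and the fold change of -0.56 ± 0.23 stood at an edgeR FDR of 0.0806. Without replicate 16 it was -0.77 and passed (FDR 0.00616). In CM Jag1 was lower in CD26+ than in CD26- NFs by -0.92 ± 0.19 (edgeR FDR 0.000556), with an overlap of the groups.

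Dll1 (ENSMUSG00000014773, chromosome 17, 15367354 to 15376872) had 10.8, 10.4 and 9.88 CPM in CD26- control libraries and 4.13, 2.67 and 3.34 CPM in CD26+ control libraries. Its log2 fold change between the cell types was -1.62 ± 0.32 (edgeR FDR 0.000353) in control medium and -1.30 ± 0.23 (edgeR FDR 0.000124) in CM, without overlap in either. In CM it ranged from 5.40 to 10.4 CPM with a median of 6.38 in CD26- and from 1.79 to 5.15 CPM with a median of 2.53 in CD26+ NFs. The CM effect did not pass in CD26- (-0.53 ± 0.25, edgeR FDR 0.158) or CD26+ NFs (-0.21 ± 0.30, edgeR FDR 0.649). An antisense lincRNA gene, A930024N18Rik, covers 20.6% of the exon bases of Dll1. Whether counting used the strand is not given in the sources used here, so its reads cannot be told apart from those of Dll1.

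Jag2 (ENSMUSG00000002799, chromosome 12, 112907819 to 112929776) had the fewest counts in any library, 6 in replicate 14. It had 8.04, 5.38 and 5.41 CPM in CD26- control and 2.02, 2.52 and 2.08 CPM in CD26+ control libraries (-1.49 ± 0.36, edgeR FDR 0.00236). In CM it had 4.70 to 7.99 CPM with a median of 5.52 in CD26- and 0.450 to 3.19 CPM with a median of 2.31 in CD26+ NFs (-1.50 ± 0.26, edgeR FDR 8.98e-05). No library overlapped between the cell types in either medium. The CM effects, -0.04 and -0.05, had edgeR FDRs of 0.944 and 0.940.

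Between the cell types, 6 of the 10 genes were called in control medium, all 6 at the lower level in CD26+ NFs, where 25% of all tested genes were higher and 25.4% lower. In CM 7 were called, 2 higher and 5 lower, beside 29.3% of all genes higher and 29.3% lower. The groups of 7 of the 10 genes did not overlap in control medium and those of 3 did not in CM, near the shares of all tested genes without overlap, 64.7% and 31.7%. The median log2 fold change was -0.43 in control medium and -0.27 in CM, against 0.01 and -0.0001 for all tested genes. The comparison in control medium uses the same control libraries as the CM effects above. The epithelial markers moved the same way as the ligands: of 11 tested, 9 were lower in CD26+ NFs in both media, for example Cdh1 (E-cadherin) by -2.48 in control medium and -2.11 in CM. Endothelial markers were lower too, 3 of 5 tested in control medium and 2 of 5 in CM, as were 2 of 4 immune markers in each medium. Mural markers went both ways, with 3 higher and 4 lower of 8 in control medium and 2 and 2 in CM, and fibroblast markers were higher, 9 of 10 and 8 of 10. The part of other cells in the ligand levels was not tested.

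**Figure D3:**
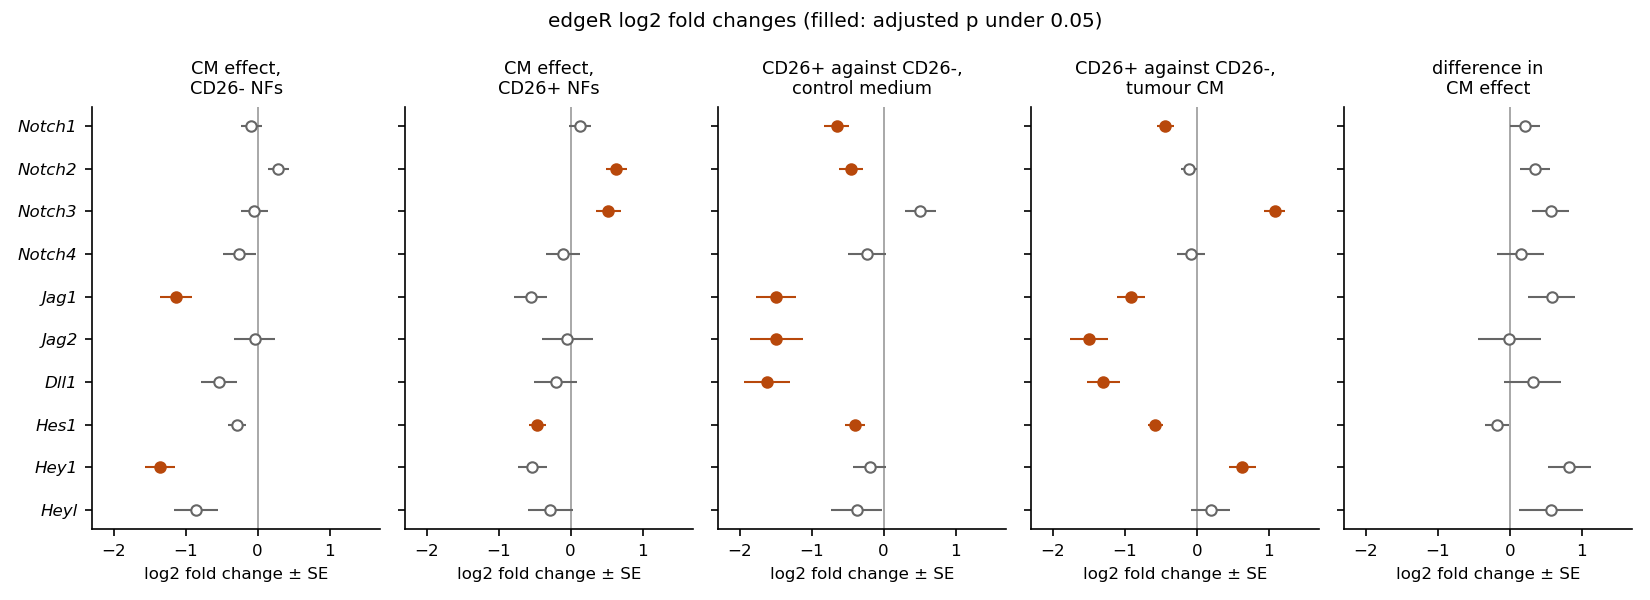
Log2 fold change of each Notch gene with its SE in the 5 comparisons, from edgeR, with filled points at an FDR under 0.05. The 3 ligands lie at -0.92 or lower in both comparisons of CD26+ with CD26- NFs, whereas Notch3 lies at 1.08 in tumour CM.

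The target genes were low to moderate in level and, where called with CM, lower. Hes1 (chromosome 16, 30064384 to 30067796) had 37.0, 39.0 and 37.4 CPM in CD26- control libraries and 25.9 to 36.3 CPM with a median of 31.4 in CD26- CM. The groups did not overlap, but the fold change of -0.29 ± 0.12 had an edgeR FDR of 0.111. In CD26+ NFs it fell from 28.2, 27.7 and 29.98 CPM to 16.8 to 26.9 CPM with a median of 20.5, again without overlap (-0.46 ± 0.12, edgeR FDR 0.0087). Hes1 was lower in CD26+ NFs in both media, by -0.40 ± 0.14 in control medium (edgeR FDR 0.0236) and -0.58 ± 0.10 in CM (edgeR FDR 9.99e-05). The first of these calls was lost without replicate 2 (FDR 0.0673), replicate 10 (0.0591) or replicate 11 (0.0780).

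Hey1 (chromosome 3, 8663359 to 8667256) had the largest CM effect of the 10 genes. In CD26- control libraries it had 4.45, 4.44 and 4.81 CPM, and in CD26- CM libraries 1.32 to 2.30 CPM with a median of 1.72, from 17 to 29 counts. All 6 CM values lay below all 3 control values, and the fall was 1.36 on the log2 scale (fold change -1.36 ± 0.21, edgeR FDR 0.000653), or 2.57-fold. CD26+ control libraries had 2.67, 4.22 and 5.05 CPM and CD26+ CM libraries from 1.77 to 3.33 CPM with a median of 2.85, with overlap (-0.53 ± 0.21, edgeR FDR 0.0631). This value passed with upper-quartile scaling (FDR 0.0460) and without replicate 10 (0.0166), 16 (0.0423) or 18 (0.0399). Over all fits without 1 library it ran from -0.75 to -0.33, with edgeR FDRs up to 0.340. In CM Hey1 was higher in CD26+ NFs (0.63 ± 0.19, edgeR FDR 0.00815), with overlap, while control libraries did not pass (-0.20 ± 0.23, edgeR FDR 0.509).

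Heyl (chromosome 4, 123233556 to 123249875) spread more widely among CM libraries. It had 29.5, 31.3 and 38.0 CPM in CD26- control libraries and 10.7 to 29.3 CPM with a median of 17.3 in CD26- CM, without overlap (-0.85 ± 0.31, edgeR FDR 0.0705). The value passed without replicate 7 (-1.04, FDR 0.0224) or replicate 16 (FDR 0.0365). In CD26+ NFs it had 20.1, 24.4 and 31.8 CPM in control medium and 13.7 to 37.0 CPM with a median of 19.1 in CM, with overlap (-0.28 ± 0.31, edgeR FDR 0.541). Without 1 library this value ran from -0.54 to -0.10, and it passed in none of these fits (lowest edgeR FDR 0.157). The cell types did not pass in either medium (edgeR FDR 0.406 and 0.555), except in a fit of only the 2 control groups (FDR 0.0395).

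The difference in CM effect asks whether the cell types answered the CM differently. None of the 10 genes was called in edgeR or DESeq2, each with 2 at an unadjusted p under 0.05, while 4.53% of all genes had a higher and 3.01% a lower effect in CD26+ NFs. Hey1 came nearest, with 0.83 ± 0.30 (edgeR FDR 0.0916), followed by Notch3 with 0.57 ± 0.26 (edgeR FDR 0.169) and Jag1 with 0.58 ± 0.33 (edgeR FDR 0.288). Libraries that received CM of the same line resembled each other across cell types. With the line as a replicate block, 3 of the 10 were called: Jag1 with 0.56 (FDR 0.0112), Hey1 with 0.82 (FDR 0.0369) and Notch3 with 0.56 (FDR 0.0496). In that fit 17.6% of all genes were called in either direction.

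A test among the 6 CM lines, with the cell type as a term and the 12 CM libraries, asks whether the source of the CM mattered. Of 13344 genes tested, 6.56% were called, and so were 2 of the 10 Notch genes, Heyl (edgeR FDR 0.00726) and Jag1 (edgeR FDR 0.0105). The highest and the lowest line differed by 1.45 for Heyl and 1.07 for Jag1 on the log2 scale. The same 3 lines, 13-MCB-44, 13-MCB-138 and 13-MCB-17, held the 3 highest levels of both genes in both cell types. For Jag1 the CD26- libraries had 258, 235 and 213 CPM with these lines and 158, 148 and 139.6 CPM with 18-MCB-12, 10-SJK-221 and 13-MCB-90. The CD26+ libraries had 168, 107 and 103 CPM against 77.9, 66.5 and 87.7 CPM in the same order of lines. Heyl had 29.3, 22.3 and 23.1 CPM against 12.3, 12.3 and 10.7 CPM in CD26- NFs, and 37.0, 22.2 and 19.9 CPM against 13.8, 18.3 and 13.7 CPM in CD26+ NFs.

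CM of 13-MCB-44 (replicates 7 and 16) gave the highest Jag1, Dll1 and Heyl of the 6 lines in both cell types. In CD26+ NFs with this CM, Jag1, Dll1 (5.15 CPM) and Heyl lay above all 3 control libraries, whereas the CD26- library stayed below the control range for Jag1 and Heyl and within it for Dll1. The same 2 libraries also held the highest summed epithelial markers of the CM libraries of their cell type, 4612 CPM in replicate 7 and 1604 CPM in replicate 16. With 13-MCB-138, 13-MCB-17, 18-MCB-12, 10-SJK-221 and 13-MCB-90 the sums were 3776, 3171, 2792, 3358 and 3679 CPM in CD26- NFs. In CD26+ NFs they were 811, 1025, 666, 701 and 1137 CPM, in the same order of lines. These sums did not rank the lines as Jag1 or Heyl did, and 13-MCB-90 gave the lowest Heyl in both cell types. Without the 13-MCB-44 library of CD26+ NFs, 5 of the 10 genes in place of 3 were called for the CM effect in these cells, while the share of all genes was 29.3% in place of 28.6%. The part of epithelial RNA in these levels was not tested.

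Dll1 (edgeR FDR 0.0702), Hes1 (0.0722), Notch2 (0.117) and Notch1 (0.161) did not pass the test among lines. All 4 passed when either library of 13-MCB-138 was left out, with FDRs of 0.000725 to 0.0246 without replicate 9 and 0.00399 to 0.0416 without replicate 18, after which that line no longer adds to the spread within lines. Both fits called 6 of the 10, and the share of all genes rose to 15.3% and 10.6%. Notch2 (0.0222) and Dll1 (0.0297) also passed with DESeq2, which called 10.3% of all genes. Notch3, Notch4, Jag2 and Hey1 had edgeR FDRs of 0.198 to 0.469.

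**Figure D4:**
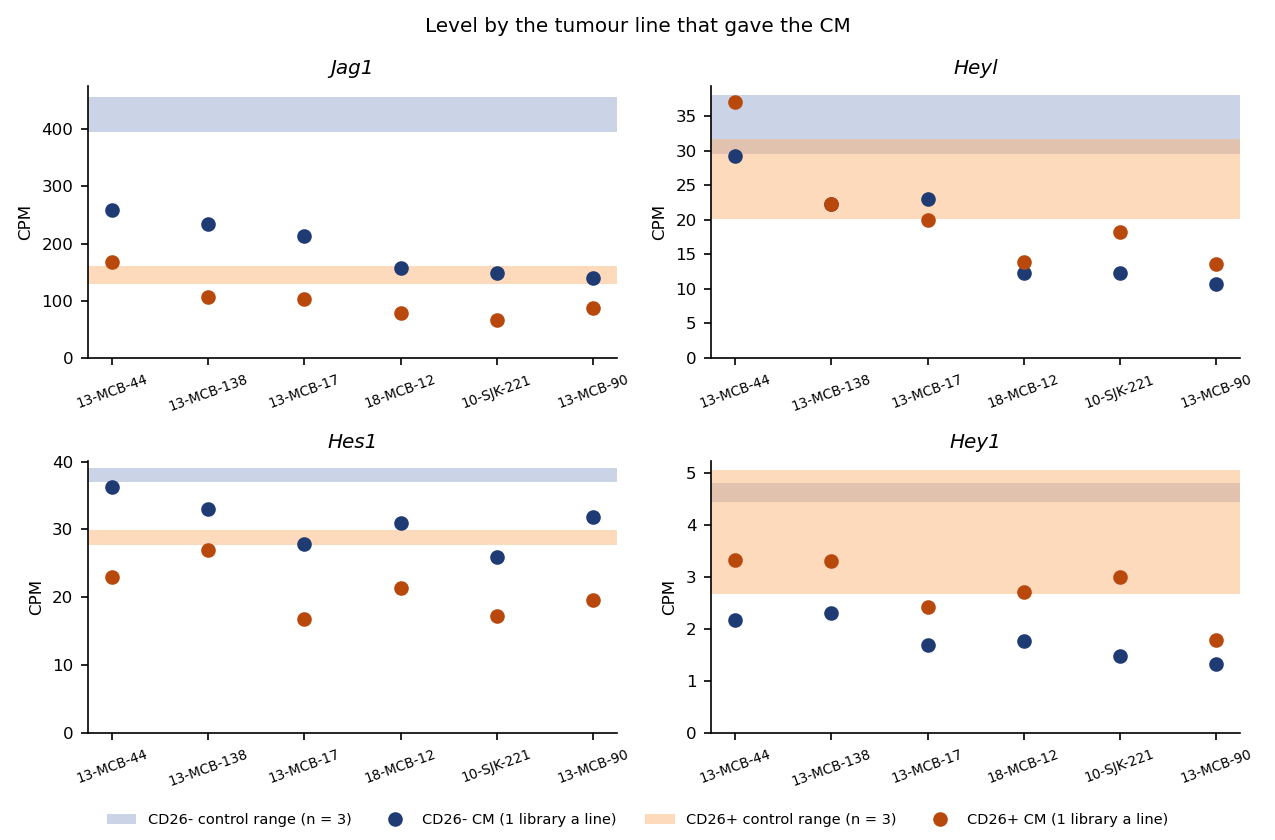
CPM of Jag1, Heyl, Hes1 and Hey1 for each tumour line that gave the CM, 1 library a line and cell type, on axes that start at 0, with shaded bands from the lowest to the highest of the 3 control libraries of each cell type. Jag1 and Heyl stand highest with 13-MCB-44 in both cell types, at 258 and 168 CPM for Jag1.

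The wider pathway was read from a list of 62 further genes, of which 51 were tested. In CD26- NFs 4 were higher and 8 lower with CM, and in CD26+ NFs 9 were higher and 9 lower, 23.5% and 35.3% of those tested beside 15.2% and 28.6% of all genes. The median log2 fold change of the 51 was -0.06 and 0.02. Rbpj, the DNA-binding partner of cleaved receptors, rose in both cell types. Its mean was 45.9 ± 4.48 CPM (SD, n = 3) in control medium and 82.9 ± 18.7 CPM (n = 6) in CM in CD26- NFs (0.85 ± 0.23, edgeR FDR 0.0204) and 46.8 ± 2.17 and 109.9 ± 33.6 CPM in CD26+ NFs (1.23 ± 0.23, edgeR FDR 0.000867). It also differed among the CM lines (edgeR FDR 0.0153), as did Epn2 (0.023) and Adam10 (0.0281). These were 3 of 49 tested, near the share of all genes called in that test, 6.56%.

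Genes related to the ligands moved with CM in both cell types. Dlk2, which encodes a Delta-like membrane protein without the usual receptor-binding domain, rose by 1.397 ± 0.216 in CD26- (edgeR FDR 0.000602) and 2.11 ± 0.23 in CD26+ NFs (edgeR FDR 4.74e-06). Its relative Dlk1 fell, by 0.95 and 1.48 on the log2 scale. Megf10, an engulfment receptor with repeats like those of Notch ligands, fell by 1.03 and 1.26. The classical ligands Dll3 and Dll4 were not tested: Dll4 had at most 8 counts and Dll3 at most 2 counts in any library.

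Of the enzymes that modify the receptors, Lfng fell in both cell types (-0.71 and -0.69). Its paralogue Rfng rose in CD26- NFs (0.43 ± 0.08, edgeR FDR 0.00175), as did Xxylt1, which adds xylose to the receptors (0.36 ± 0.08, edgeR FDR 0.00544). Among 10 genes of receptor cleavage, Adam10 fell in CD26- (-0.39 ± 0.07, edgeR FDR 0.00218) and CD26+ NFs (-0.22 ± 0.07, edgeR FDR 0.0333), while Adam17 rose in CD26+ NFs (0.34 ± 0.05, edgeR FDR 0.00017). L3mbtl3, which binds Rbpj as a corepressor, fell by 0.60 in CD26- and 0.52 in CD26+ NFs. Neurl1b, a ubiquitin ligase that acts on the ligands, fell in CD26+ NFs, with 4.13 ± 0.589 CPM (SD, n = 3; 47 to 65 counts) in control medium against 0.461 ± 0.494 CPM (n = 6; 1 to 16 counts) in CM (-3.17 ± 0.40, edgeR FDR 1.99e-05). Without replicate 18 its log2 fold change was -3.88.

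**Figure D5:**
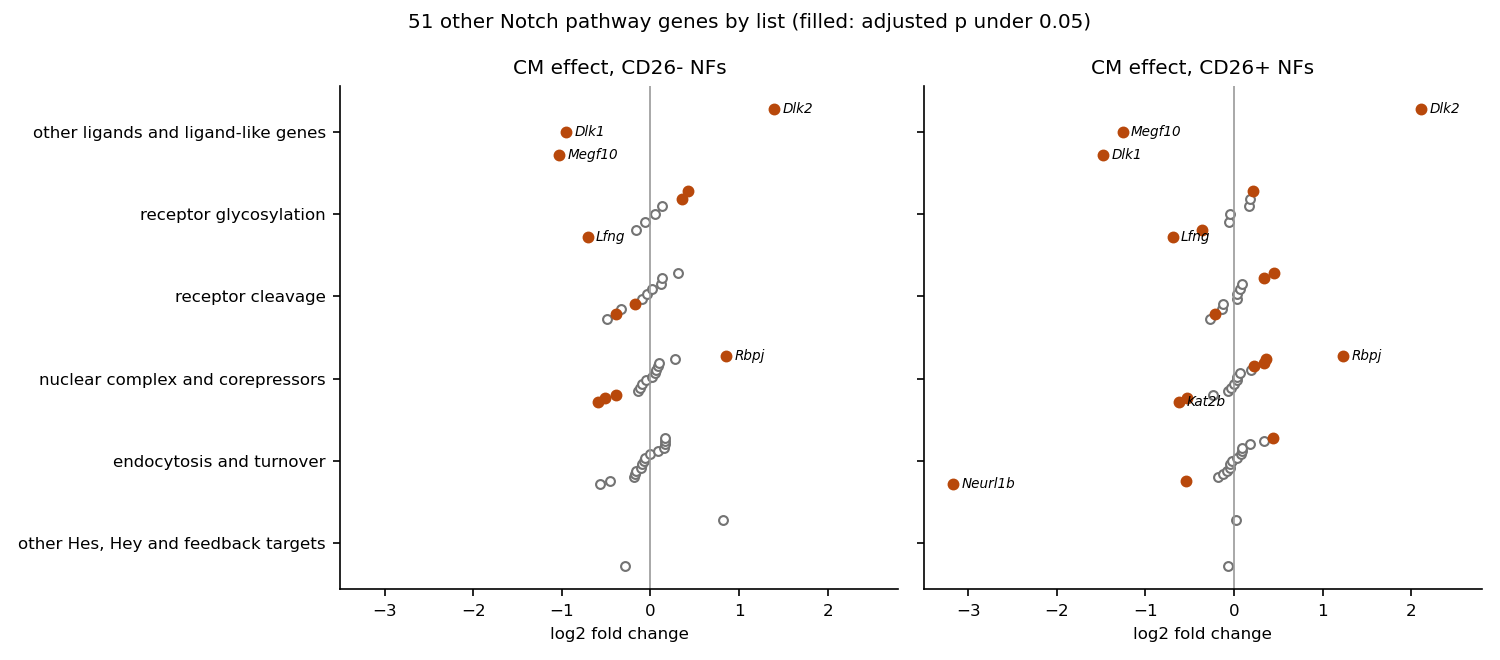
Log2 fold change with tumour CM of the 51 tested other Notch pathway genes, by list, in CD26- NFs (left) and CD26+ NFs (right), 1 point a gene, with filled points at an edgeR FDR under 0.05 and names where the change was over 0.6 in size. Dlk2 and Rbpj were called higher and Dlk1, Megf10 and Lfng lower in both cell types, and Neurl1b lay at -3.17 in CD26+ NFs.

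Between the cell types, 15 of the 51 stood higher in CD26+ NFs and 10 lower when grown in control medium, as did 21 and 9 in CM. These are 49.0% and 58.8% of the 51, at the shares of all tested genes, 50.3% and 58.6%. Dlk1 was higher in CD26+ NFs, 31.9 ± 2.99 CPM against 4.93 ± 1.52 CPM (SD, n = 3 each) in control medium (2.71 ± 0.25, edgeR FDR 2.25e-07) and by 2.19 in CM. In control medium Nedd4 (0.58) and Mib2 (0.92), both ubiquitin ligases, were higher, while Dtx4, a ligase of the Deltex family (-2.13), the endocytic adaptor Epn2 (-0.59) and Fbxw7, which marks the cleaved receptor for breakdown (-0.46), were lower. In CM Adam17 (0.52) and the coactivator Maml1 (0.56) were higher, and Dtx4 (-1.34), Neurl1a (-0.54) and the feedback target Nrarp (-2.09, on 0 to 18 counts) were lower. For the difference in CM effect, Neurl1b (-2.60, edgeR FDR 0.0195) and Epn2 (0.45, edgeR FDR 0.0489) were called. These are 3.92% of the 51, below the 7.53% of all tested genes. Epn2 lost its call in 16 of the 18 fits without 1 library and Neurl1b in 2, without replicate 3 (FDR 0.0550) or 11 (0.0599), and without replicate 18 the Neurl1b value was -3.32. Of 8 other Hes, Hey and feedback genes, only Hes6 and Nrarp were tested, and Hes5 had 0 counts in every library, which allows up to 3 counts in each.

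The genes whose log2 CPM was most like that of each Notch gene over the 18 libraries were listed as a description, since all points share the 4 groups. For Dll1 the first was Samd12 (r = 0.980). Jag1 ran with Dgkk (0.969) and Nebl (0.967), and Jag2 with Plekha7 (0.916), a protein of epithelial junctions, and Gm17018 (0.910). Notch3 was nearest to Klf3 (0.953) and Lamc1 (0.942), Notch2 to Parvb and Usp24 (both 0.962), and Notch1 to Prrc2b (0.923) and Fam160a2 (0.919). Hes1 ran with Sytl5 (0.970) and Myo1d (0.965), Hey1 with Plekha1 (0.914) and Eif2ak3 (0.910), and Heyl with Sfxn3 (0.900) and Sorcs2 (0.860). Notch4 had the loosest match, Mcub (0.6996) and Churc1 (0.670).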

How the data were processed

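RNA was prepared with a stranded mRNA kit and sequenced single-end. The deposited counts per gene are the authors' values without normalization. Per the labels and the submitters' processing notes, HISAT2 2.1.0, HTSeq and GRCm38 were used, and the strand setting and annotation release are not given in the sources used here. One row without a gene, with 0 counts, was left out. Libraries of a group differed beyond counting noise (chi-square over its degrees of freedom at least 3.22), so none was counted as a copy.

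Genes were filtered with filterByExpr, scaled with TMM and tested with the quasi-likelihood F test (glmQLFit, glmQLFTest) of edgeR 4.0.16 in R 4.3.3, first checked on simulated data. SE is the log2 fold change divided by the root of F. Lines were compared in a second edgeR fit with terms for cell type and line. Same-line libraries had residual correlations of 0.247 to 0.406 in 6 of 6 pairs across cell types. Pairs of different lines had -0.315 to 0.242, the highest of which lay just below the lowest same-line value. The line was used as a replicate block in alternatives. Others were DESeq2 1.42.0, other scalings and filters, and fits without each library. CPM per kb used GENCODE M21 exon lengths. Total counts, 9725723 or more, limit the precision of genes with few counts.

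Besides the 10 genes, the named ones are, per contrast, the 3 called pathway genes with the smallest p in each direction (3 in all among lines), the marker genes, and the 2 best-correlated genes averaging 5 CPM or more. Megf10, Dlk1, Lfng, Adam10, Rbpj and L3mbtl3 in the other cell type, and genes at few counts, were added after their values were seen. Details of the tumour model's genotype and 1 gene that the correlation rule names are not reported here. The 10 genes and all lists were chosen with earlier results of these data known.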

Additional observations from a re-analysis of the deposited data

Results flagged for a closer look

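In 20 groups of 6 CM libraries (10 genes in both cell types), 2 had a library far from the others, where chance alone gives about 1 in 20 groups. For Notch3 in CD26+ CM, replicate 13 had 38.9 CPM beside 20.8 to 25.9 CPM, and its gap to the next library took 0.717 of the range. For Heyl in CD26+ CM, replicate 16 had 37.0 CPM beside 13.7 to 22.2 CPM, with a gap of 0.632 of the range.

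With the line as a replicate block, the CM effect differed between the cell types for Jag1 (0.56), Hey1 (0.82) and Notch3 (0.56 on the log2 scale, CD26+ minus CD26-). Without the block none of these differences passed.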

How the results depend on the processing

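Of 1352 values of the 10 genes under other settings, 1289 kept their direction and their side of the threshold, 12 lost and 28 gained it, 0 called values turned, and 23 uncalled values changed sign. With a mean of at least 5 CPM, 1 of the 10 genes was called for the CM effect in CD26- NFs, since Hey1 was not tested. The line as a replicate block gave 3 of the 10 and 9 of 51 other pathway genes for the difference in CM effect, the latter at the 17.6% of all genes in that fit, and it changed no call of the 10 between the cell types in CM. Other pathway genes called for that difference numbered 4 with DESeq2 (12.9% of all genes), 1 with RLE scaling (7.5%) or without a filter (2.4%), and 0 at an adjusted p under 0.01 (1.67%), where the CM effect in CD26- NFs kept 6. Among lines, DESeq2 called 4 of the 10 and 6 other pathway genes. Without 1 library, the 10 genes gave 2 to 5 calls for the CM effect in CD26+ NFs (5 without replicate 16) and 2 to 6 among lines (6 without replicate 9 or 18). Other pathway genes gave 0 to 5 calls for the difference in CM effect (0 without replicate 3 or 11, 5 without replicate 18, with 2.33% to 16.4% of all genes called) and 1 to 9 among lines (9 without replicate 9, 7 without replicate 18). The cause was not tested. Depth limits Hey1, Jag2, Notch4 and Dll1, which had as few as 17, 6, 28 and 20 counts in a library.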
